A study of Saccharomyces cerevisiae with 593 samples.

Results

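The 41 genes described here encode proteins of the small ribosomal subunit of Saccharomyces cerevisiae, and each is read on the array by several oligos. They were chosen from the annotation and not from their values: every gene with an RPS symbol and at least 3 oligos, without RPS9A, RPS14B and RPS22B. They make up 41 of the 982 genes named on the array. Of the members, 37 have 3 oligos and 4 have 4 (RPS8A, RPS25A, RPS26A and RPS29A). The members hold 19 complete paralogue pairs, and 3 members (RPS9B, RPS13 and RPS14A) have no partner among them.

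The small subunit binds the mRNA and checks the match of codon and anticodon. Most of its proteins in budding yeast are encoded by a pair of paralogous genes that were kept after a genome duplication, and many of these genes carry an intron. Their transcription is high in growing cells, depends on the factors Rap1, Fhl1 and Ifh1, and is controlled by nutrients through the TORC1 and protein kinase A pathways. Because ribosomal protein transcripts make up a large share of the precursors that the spliceosome handles, they are often used to follow pre-mRNA processing.

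Each array compared, in 2 colours, cDNA of treated or starved cells with cDNA of a reference culture, and a value is the log2 ratio of the first over the second. The 593 arrays belong to 311 array identifiers, 282 of which were hybridised in both dye orientations, and both orientations of an identifier count as 1 replicate. Wild-type cells were given 1 M KCl, 0.5 M NaCl, 300 mM LiCl, heat shock at 42 degrees Celsius, 5 ug/mL sulfometuron methyl (SMM, an inhibitor of branched-chain amino acid synthesis), 1 M sorbitol, or media without amino acids, glucose, inositol, phosphate or nitrogen, and were compared with untreated wild-type cells of the same time. Wild-type cells in 50 mM 3-aminotriazole (3-AT, an inhibitor of histidine synthesis), 200 ng/mL rapamycin (an inhibitor of TORC1) 1 mg/mL wortmannin (an inhibitor of phosphatidylinositol kinases), 1 or 10 mM dithiothreitol (a reducing agent) or 20 uM TBB (an inhibitor of casein kinase 2) were compared with wild-type cells taken before treatment, so that for these treatments time in culture and treatment cannot be told apart. A strain with HIS3 deleted and a strain labelled HIS3 repaired were each moved to medium without histidine and compared with untreated cells of their own strain and time. Array titles call such controls mock treated, for example in KCl, heat shock, amino acid depletion and histidine depletion. They are called untreated here. A strain with HOG1 deleted, the kinase of the osmotic stress pathway, was given KCl and compared with its own untreated cells, and a strain with RRP6 deleted, which lacks a nuclease of the nuclear exosome, was compared with wild-type cells of the same treatment and time. The treatments tested at 20 min had 2 to 4 replicates, and sorbitol, dithiothreitol, TBB and the phosphate and nitrogen depletions had 1 there. The labels do not say whether replicates were separate cultures, so the p-values measure the spread between these samples. That spread was estimated for each gene, oligo or pair over all groups of the fit, and not from the replicates of 1 treatment alone.

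Precision is limited by the number of arrays. The 6 copies of a member oligo had a median SD of 0.117 on an array, against 0.138 over all named oligos. Missing spots made up a median of 4.64% of an array (range 0.0326% to 64.1%), and 26 arrays had over 20%. Values are relative to the other genes of an array, so a change shared by all RNA of the cells would not be seen. The leading number of an array identifier in the titles is called its batch here, and the labels do not say what it stands for. For 7 identifiers of batch C with the treated RNA in channel 2, the ratio correlated negatively over oligos with the other replicates of the same treatment and time. In rapamycin the correlations ran from -0.0120 at 5 min to -0.8893 at 40 min. They were weak in wortmannin, at -0.1378, and in nitrogen depletion, at -0.2030 and -0.1402. The direction of these 7 was not settled and they were left out. In the strain without RRP6, the RRP6 oligo stood below the wild type on all 13 identifiers, between -3.40 and -0.85. The hog1 arrays compared the deletion strain with itself, so their HOG1 oligo does not check the deletion.

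A gene's level was the mean of its oligos. At 20 min, the members stood below their controls in most stresses. The median over the 41 genes was -0.47 ± 0.21 (SD, n = 2) in heat shock, -0.40 ± 0.10 (n = 3) in rapamycin, -0.38 ± 0.04 (n = 2) in glucose depletion, -0.36 ± 0.10 (n = 3) in LiCl, -0.33 ± 0.09 (n = 2) in wortmannin and -0.23 ± 0.05 (n = 2) in NaCl. It was -0.19 ± 0.08 (n = 2) in amino acid depletion and -0.10 ± 0.04 (n = 3) in 3-AT. In KCl it was 0.06 ± 0.03 (n = 4), in SMM 0.03 ± 0.00 (n = 2) and in inositol depletion -0.01 ± 0.06 (n = 2). The replicates of the first 8 of these treatments all stood below 0 and those of KCl and SMM all above 0.

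**Figure D1:**
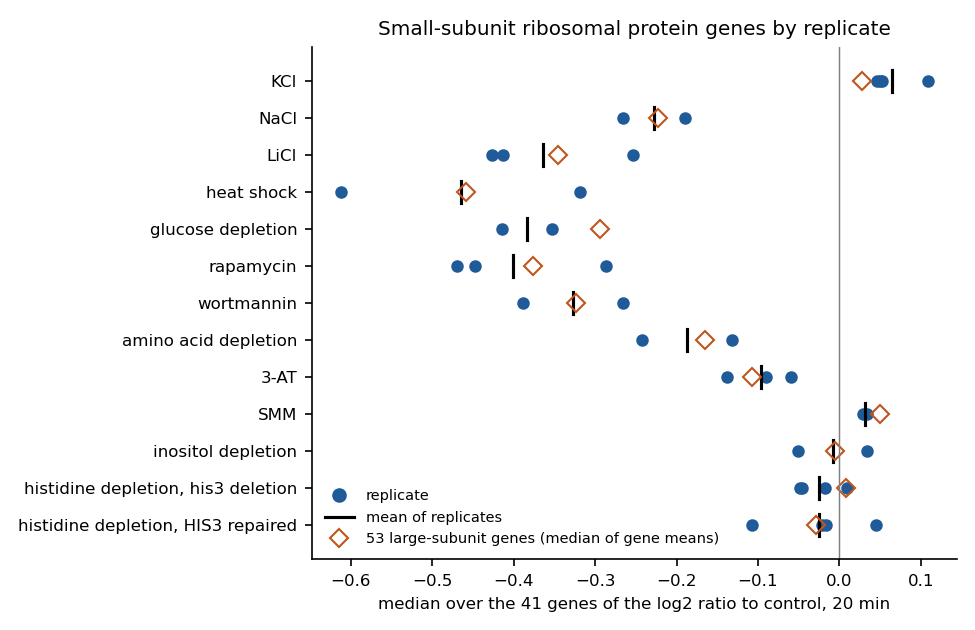
Median over the 41 small-subunit genes of the log2 ratio to control at 20 min (horizontal axis), by treatment. Each blue point is a replicate and the black bar their mean. The open diamond is the median over gene means of the 53 large-subunit genes with several oligos, which is not the same measure as the bar. Heat shock, at -0.47, is the lowest mean and its 2 replicates lie furthest apart.

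Lists of other genes were summarised by the median over gene means, each gene averaged over replicates first. For the 53 large-subunit ribosomal protein genes with several oligos it was -0.46 in heat shock, -0.38 in rapamycin, -0.35 in LiCl, -0.29 in glucose depletion and 0.03 in KCl. On this measure the members stood at -0.49, -0.44, -0.36, -0.37 and 0.09 in the same order. The 9 small-subunit genes read by 1 oligo (RPS1A, RPS2, RPS3, RPS12, RPS15, RPS20, RPS22A, RPS28A and RPS31) had medians of -0.50 in heat shock and -0.37 in rapamycin, but -0.14 in LiCl, -0.02 in glucose depletion and 0.34 in KCl, where 5 of the 9 were higher and 2 lower. The 856 named genes outside the ribosomal protein families had medians of 0.09 in heat shock, 0.10 in rapamycin, 0.09 in LiCl, 0.13 in glucose depletion and -0.01 in KCl.

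Heat shock lowered 30 of the 41 members and raised none (limma, adjusted over all 982 genes, of which 17% were lower and 14.6% higher). RPS18B, which encodes a protein of the subunit's head, stood at -1.42 and -0.89 in the 2 replicates, a mean of -1.16 ± 0.37 (limma adjusted p = 1.13e-09). RPS6B, for the protein that is phosphorylated downstream of TORC1, stood at -1.47 and -0.66, a mean of -1.06 ± 0.57 (limma adjusted p = 1.02e-19). RPS29A, for a small zinc-binding protein, stood at -1.27 and -0.78, a mean of -1.03 ± 0.35 (limma adjusted p = 5.57e-10). In each of these genes the first replicate was the lower one. RPS21A followed at -0.94 ± 0.21 and RPS16B, whose protein reaches the P site with its tail, at -0.81 ± 0.19. Of the 11 members that did not pass, RPS4B at -0.05 and RPS30A at -0.07 lay near 0; they were picked out after their values were seen. With a spread estimated from the 2 heat shock replicates alone, none of the 41 passed, and the 2 replicates come from 2 batches, whose medians over the members were -0.61 and -0.32.

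Rapamycin lowered 32 members and raised none (limma, background 18.8% lower and 20.3% higher). RPS24B, for a protein of the subunit's body, stood at -0.86, -0.99 and -0.77, a mean of -0.87 ± 0.11 (limma adjusted p = 4.89e-15). RPS7B stood at -1.19, -0.59 and -0.61, a mean of -0.79 ± 0.34 (limma adjusted p = 8.39e-12). Every replicate of both genes was below 0. RPS13, a single-copy gene in yeast, stood at -0.77 ± 0.18 and RPS27A at -0.70 ± 0.22. RPS4B at -0.07, RPS8A at -0.08 and RPS4A at -0.11 were among the 9 members that did not pass, and were likewise picked out after their values were seen. The rapamycin count depends on the identifiers of unsettled direction: 2 members passed with them used as labelled, and 34 with their sign turned.

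Wortmannin lowered 25 members and raised none (background 10.7% lower and 11.7% higher). RPS24B stood at -0.70 and -0.98, a mean of -0.84 ± 0.19 (limma adjusted p = 1.03e-09). RPS13 stood at -0.78 and -0.77. RPS29A had a mean of -0.68 ± 0.37 and RPS21A of -0.65 ± 0.22. In RPS24B, RPS29A and RPS21A the second replicate was the lower one. Both wortmannin replicates carry the same batch number, so the response was not measured in another batch. Arrays of other treatments carry that number too, and whether the batch added to the response was not tested. Without replicate 2 the count was 6.

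Glucose depletion lowered 30 members and raised none (background 17.5% lower and 23.7% higher). RPS19B, whose human homologue is mutated in Diamond-Blackfan anaemia, stood at -1.04 and -0.80, a mean of -0.92 ± 0.17 (limma adjusted p = 2.44e-11). RPS10B, for a protein of the subunit's beak, stood at -0.71 and -0.75, a mean of -0.73 ± 0.02 (limma adjusted p = 4.03e-07). RPS7B had a mean of -0.69 ± 0.29 and RPS0B of -0.67 ± 0.19. None of the 41 passed with a spread from the 2 glucose replicates alone, and 15 did without replicate 2.

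LiCl lowered 31 members and raised none (background 21.1% lower and 21.9% higher). RPS7B stood at -0.56, -1.24 and -0.88, a mean of -0.89 ± 0.34 (limma adjusted p = 1.31e-14). RPS0B, for a protein that joins the precursor subunit late and is needed for its maturation, stood at -0.44, -1.31 and -0.73, a mean of -0.83 ± 0.44 (limma adjusted p = 3.99e-13). RPS19B stood at -0.42, -1.11 and -0.62, a mean of -0.72 ± 0.36 (limma adjusted p = 3.56e-11). In these 3 genes the first replicate was nearest to 0 and the second was the lowest. The low means of RPS0B and RPS19B rested mostly on oligo 3 of each gene, as given below where oligos are compared. RPS24B followed at -0.67 ± 0.31 and RPS9B, for a protein near the mRNA entry channel, at -0.61 ± 0.24. With the median of a gene's oligos in place of their mean, 10 members passed, and with a spread from the compared groups alone 16 did.

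NaCl lowered 19 members and raised none (background 11.8% lower and 13.5% higher). RPS0B stood at -0.57 and -0.79, a mean of -0.68 ± 0.15 (limma adjusted p = 2.09e-06). RPS24B stood at -0.60 and -0.49, RPS7B at -0.54 and -0.50, and RPS21A at -0.51 and -0.35. The 2 replicates of each of these genes were close. The count was 2 without replicate 1, 11 without replicate 2, and 7 with the median of a gene's oligos.

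KCl split the members. It raised 8 and lowered 6 (background 15.5% higher and 16.3% lower), both near the shares of all genes. RPS4B stood at -0.61, -0.77, -0.58 and -0.39, a mean of -0.59 ± 0.16 (limma adjusted p = 1.64e-11), and RPS4A at -0.39, -0.64, -0.49 and -0.16, a mean of -0.42 ± 0.20 (limma adjusted p = 2.25e-08). All replicate values of this pair were below 0. Its protein binds the 5' part of the 18S rRNA early in assembly.

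The members that KCl raised were led by RPS10B, at 0.47, 0.55, 0.27 and 0.26, a mean of 0.39 ± 0.14 (limma adjusted p = 0.000115). RPS29A stood at 0.28, 0.68, 0.26 and 0.14, a mean of 0.34 ± 0.23 (limma adjusted p = 0.00291). RPS25B, for a protein that viral internal ribosome entry sites depend on, stood at 0.26, 0.47, 0.23 and 0.38, a mean of 0.33 ± 0.11 (limma adjusted p = 0.000111). In each of these the second replicate was the highest. RPS10A had a mean of 0.27 ± 0.15 and RPS30A of 0.22 ± 0.12. RPS0B was lower, at -0.29 ± 0.13 (limma adjusted p = 0.00313). Without replicate 2, or without replicate 4, 9 members passed.

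The low levels of RPS4A and RPS4B in KCl held over time. RPS4A stood at -0.48 ± 0.16 at 5 min (n = 3), -0.48 ± 0.21 at 10 min and -0.42 ± 0.15 at 40 min (n = 4 at both), and RPS4B at -0.61 ± 0.15, -0.63 ± 0.18 and -0.58 ± 0.27. The mean of RPS4B was the lower one at each time. In the strain without HOG1, at 20 min, RPS4B stood at -0.47 ± 0.10 (n = 2) and RPS4A at -0.38 ± 0.10, while RPS10B stood at 0.43 ± 0.09 and RPS29A at 0.43 ± 0.05. The difference between the strains was not tested.

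**Figure D2:**
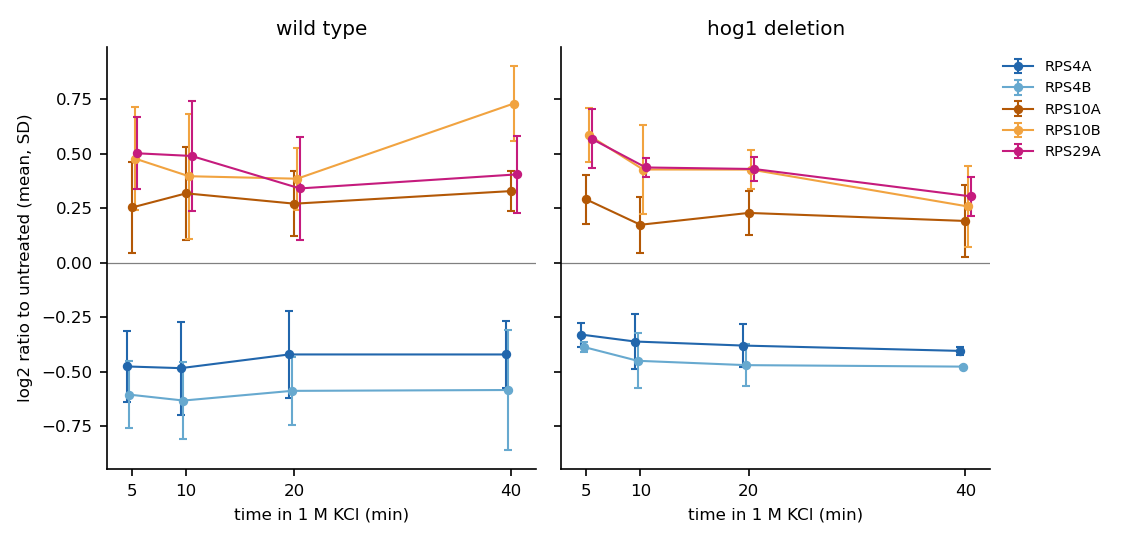
Log2 ratio to untreated cells (mean and SD of replicates) of 5 genes against time in 1 M KCl, in the wild type (left) and in the hog1 deletion strain (right). RPS4 genes lie below 0 and RPS10 genes and RPS29A above 0 from 5 to 40 min in both strains.

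Amino acid starvation and histidine starvation moved fewer members at 20 min, the time of the counts that follow. Amino acid depletion lowered 10 and raised none (background 16.2% lower and 19.2% higher), and no member passed with a spread from its 2 replicates alone. RPS21A stood at -0.44 and -0.46 (limma adjusted p = 0.00273). RPS16B stood at -0.51 and -0.37 (limma adjusted p = 0.00373). RPS6B, at -0.41 ± 0.07, and RPS6A, at -0.39 ± 0.01, moved together, and RPS19B stood at -0.37 ± 0.02. The count was 3 without replicate 1 and 6 without replicate 2. By 40 min the median over the 41 members was -0.40 ± 0.18 (n = 2) in amino acid depletion, with 40 members below 0. In 3-AT it was -0.18 ± 0.07 (n = 2) by then, with 39 below 0. Members were not tested at 40 min in these 2 treatments. In the his3 deletion strain without histidine the median at 40 min was -0.06 ± 0.05 (n = 4).

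3-AT lowered 4 members and raised none (background 5.7% lower and 12.1% higher). RPS25B stood at -0.41, -0.54 and -0.80, a mean of -0.59 ± 0.20 (limma adjusted p = 1.16e-08). RPS7A at -0.30 ± 0.02, RPS19A at -0.21 ± 0.15 and RPS25A at -0.18 ± 0.07 also passed. With 1 of the 3 replicates left out, 1 to 2 members passed, RPS25B among them each time, and none did with a spread from the 3-AT replicates alone. RPS25B was the 1 member that changed in the his3 deletion strain after removal of histidine, at -0.55, -0.29, -0.38 and -0.02, a mean of -0.31 ± 0.22 (limma adjusted p = 0.0047; background 1.22% lower and 1.12% higher). It no longer passed without replicate 1 or without replicate 3 of that strain. In the HIS3 repaired strain no member passed and none had an unadjusted p below the threshold of 0.05 (limma, background 0% lower and 0% higher), with a lowest value of -0.14 ± 0.20 for RPS13 and a highest of 0.15 ± 0.13 for RPS18B. The difference between the 2 strains was largest for RPS25B at -0.33, from means of -0.31 and 0.02, and it did not pass (limma adjusted p = 0.132; background 0.204% lower and 0.509% higher; 2 members had an unadjusted p below 0.05). RPS14A was the highest, at 0.21.

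SMM raised 2 members, RPS24B at 0.26 and 0.36 and RPS27A at 0.39 and 0.19 (limma adjusted p = 0.0356 and 0.0273; background 4.99% higher and 6.42% lower), and lowered none. The share of members that were higher, 4.88%, was near that of all genes. Neither gene passed when 1 of the 2 replicates was left out. Inositol depletion changed no member, and none had an unadjusted p below 0.05 (limma, background 0.305% higher and 0% lower). RPS0B stood at -0.34 and 0.15 there, and RPS26A at 0.15 and 0.11.

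**Figure D3:**
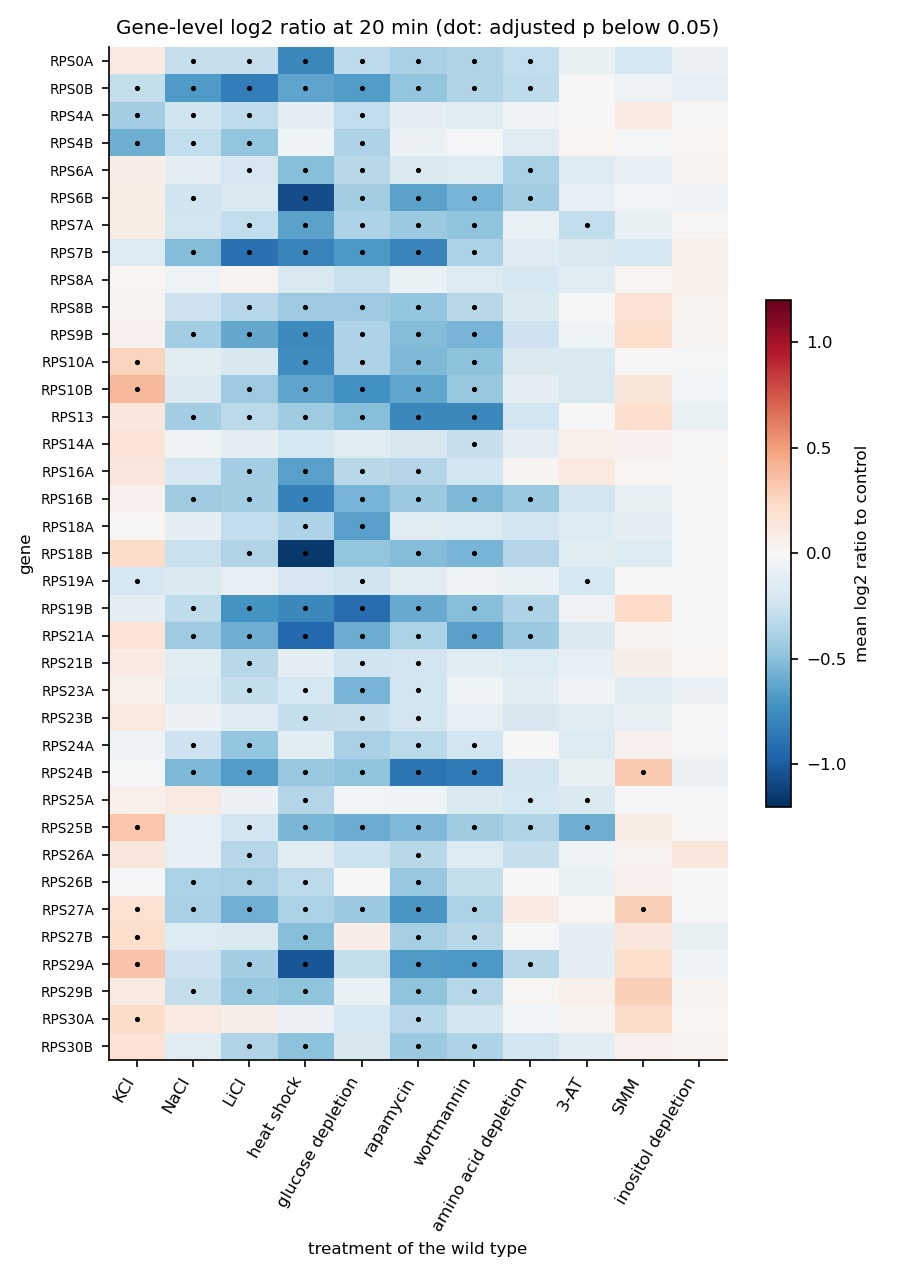
Mean log2 ratio to control at 20 min for 37 of the genes (rows) in 11 treatments of the wild type (columns); blue is below and red above 0, and a dot marks an adjusted p below 0.05. RPS4 genes are blue in KCl and pale in heat shock, rapamycin and wortmannin.

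Members differed in how often they fell. Over the 13 comparisons of a treatment with its control, RPS0B and RPS25B were lower in 8, and RPS0A, RPS16B, RPS19B and RPS21A in 7. Most members, 30 of 41, were lower in between 3 and 6. RPS8A changed in none, RPS14A was lower in 1, and RPS30A was lower in 1 and higher in 1; these 3 were picked out after their values were seen. RPS8A stood between -0.26 in glucose depletion and 0.04 in LiCl over the treatments that lowered 19 or more members. The labels do not say whether treatments share control cells, so the comparisons may not be independent.

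Of the members most often among the extremes at 20 min, 7 were followed over time. RPS7B fell late in rapamycin, at 0.17 ± 0.31 at 5 min, 0.02 ± 0.30 at 10 min, -0.79 ± 0.34 at 20 min and -0.83 ± 0.22 at 40 min. RPS24B stood at 0.04 ± 0.10, -0.41 ± 0.15, -0.87 ± 0.11 and -1.02 ± 0.21. RPS19B stood at 0.26 ± 0.15, -0.34 ± 0.29, -0.61 ± 0.05 and -0.87 ± 0.21. These 3 began near or above 0 and were lowest at 40 min. RPS29A went from -0.19 ± 0.21 at 5 min to -1.16 ± 0.23 at 40 min, RPS25B from -0.11 ± 0.25 to -0.88 ± 0.39, RPS21A from -0.23 ± 0.57 to -0.80 ± 0.13, and RPS0B from 0.27 ± 0.34 to -0.49 ± 0.14.

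In heat shock the same 7 followed different courses. RPS0B was as low at 5 min, at -0.68 ± 0.10, as at 40 min, at -0.56 ± 0.14. RPS24B was lowest at 10 min, at -0.73 ± 0.30, and stood at -0.36 ± 0.25 at 40 min. RPS29A went down with time, from -0.39 ± 0.17 at 5 min to -1.09 ± 0.37 at 40 min, and RPS25B from -0.18 ± 0.05 to -0.71 ± 0.34. RPS7B, RPS19B and RPS21A stood at -0.79 ± 0.26, -0.75 ± 0.27 and -0.83 ± 0.11 at 40 min.

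In LiCl the level at 40 min was compared with that at 5 min. It was lower for 8 members and higher for 1 (background 7.03% lower and 8.15% higher). RPS7B went from -0.14 ± 0.03 at 5 min to -0.79 ± 0.05 at 40 min, a difference of -0.65 (limma adjusted p = 0.00013). RPS26B, whose protein lines the mRNA exit channel, differed by -0.57 (limma adjusted p = 0.00207), RPS29A by -0.53, RPS10A by -0.52 and RPS24B by -0.43. RPS4B, chosen after its value was seen, went the other way, from -0.61 at 5 min to -0.19 at 40 min (limma adjusted p = 0.0061). RPS0B stood at -0.61 ± 0.20 at 5 min, -0.70 ± 0.06 at 10 min and -0.36 ± 0.13 at 40 min. In KCl 1 member was lower at 40 than at 5 min and none higher (background 4.28% lower and 3.67% higher): RPS0B differed by -0.42, from -0.18 to -0.60 (limma adjusted p = 0.0217), and it did not pass when any replicate at 5 min, or replicate 2 or 3 at 40 min, was left out. No member differed between these times in the his3 deletion strain (limma; 4 had an unadjusted p below 0.05; background 0.407% lower and 0.611% higher) or in the HIS3 repaired strain (limma; 0 had one; background 0% lower and 0% higher). RPS21A, at -0.28, was the lowest in the first and RPS10B, at -0.20, in the second.

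Within a gene the oligos often moved apart. The annotation pairs an oligo with a gene but does not give the place it reads, so an intron, an exon or a junction cannot be told apart here, and oligos are numbered by their position on the array. Each oligo was compared with the mean of the others of its gene. In LiCl 92 member oligos differed, 72.4% of them (background 40.6% of 702 oligos), in KCl 75 or 59.1% (background 44.4%) and in rapamycin 44 or 34.6% (background 28.6%). In 3-AT 3 did (background 3.42%), in the his3 deletion strain 1 (background 0.142%) and in the HIS3 repaired strain 0 (limma, 6 at an unadjusted p below 0.05; background 0%). Of the 41 genes, 36 had a differing oligo in LiCl, and the share of such genes over the whole array was not counted. The differences of a gene's oligos sum to 0, so that 1 low oligo by itself puts the others above 0.

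RPS19B showed the widest gap in LiCl. The difference of its oligo 3 from the others was -1.39, -3.22 and -1.92 in the 3 replicates, a mean of -2.17 ± 0.94 (limma adjusted p = 2.19e-19), where the oligo itself stood at -2.17 and the others at 0.01. RPS0B oligo 3, at -2.16 while the others stood at -0.16, had differences of -1.42, -2.97 and -1.62. RPS24A oligo 3, in 2 replicates, differed by -1.53 ± 0.32. In each of these genes 1 oligo was far below its control while the mean of the rest lay within 0.16 of 0. Seen from the other side, RPS0B oligo 2 lay 1.24 ± 0.43 above its gene's other oligos, and RPS19B oligos 2 and 1 by 1.16 ± 0.59 and 1.01 ± 0.35.

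KCl gave smaller gaps, and in several genes the other oligos stood above 0. RPS10A oligo 2 differed by -1.07 ± 0.22 (limma adjusted p = 1.60e-09), its own mean being -0.44 and that of the others 0.63. RPS29A oligo 2 differed by -0.99 ± 0.20 (own -0.40, others 0.59) and RPS10B oligo 2 by -0.95 ± 0.33 (own -0.24, others 0.70). RPS19B oligo 2, RPS10A oligo 1 and RPS27B oligo 2 lay 0.71 ± 0.09, 0.71 ± 0.18 and 0.69 ± 0.28 above their gene's others. By contrast the 3 oligos of RPS4A stood at -0.43, -0.32 and -0.51, and those of RPS4B at -0.59, -0.36 and -0.82, so that both genes were low on every oligo.

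In rapamycin RPS13 oligo 3 differed by -1.19 ± 0.20 (limma adjusted p = 5.07e-09; own -1.56, others -0.37). RPS0B oligo 3 differed by -1.70, -1.08 and -0.13 in the replicates, the last of which comes from another batch. RPS18A oligo 2 at -0.84 ± 0.15 and RPS24A oligo 3 at -0.78 ± 0.34 were also below their gene's others. RPS18A oligo 3, RPS13 oligo 2, RPS29B oligo 3 and RPS0B oligo 1 lay 0.76 ± 0.45, 0.75 ± 0.04, 0.68 ± 0.11 and 0.63 ± 0.54 above them. With a spread from the rapamycin replicates alone, 1 member oligo passed.

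The oligos of RPS25B parted in the histidine courses. In 3-AT its oligos 1 and 2 stood at -0.79 and -0.93 and its oligo 3 at -0.04, a difference of 0.81 ± 0.11 for oligo 3 (limma adjusted p = 1.91e-05) and of -0.52 ± 0.15 for oligo 2. In the his3 deletion strain without histidine, oligo 3 lay 0.77, 0.67, 0.62 and 0.50 above the others in the 4 replicates (limma adjusted p = 0.000243), with oligos 1 and 2 at -0.53 and -0.52. Oligo 3 is also the lowest RPS25B oligo after 5 min in LiCl. In amino acid depletion at 40 min oligos 1 and 2 stood at -1.10 and -0.97 and oligo 3 at 0.48. RPS16A oligo 2, at -0.51 ± 0.22, was the other oligo that differed in 3-AT.

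The oligos that stood apart in LiCl were followed through the other treatments. For each gene, the oligo with the lowest mean after 5 min in LiCl was taken and is called its early oligo. This choice was made after the values were seen, so what follows is a description without tests. After 5 min in LiCl the early oligos had a median of -0.74 over the 41 genes and the other oligos one of 0.09, a gap that the choice itself sets. The gap to the next lowest oligo was smallest in RPS19A, at 0.13.

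The heat shock arrays described here carry other batch numbers than the LiCl arrays. A further heat shock course, over untreated cells of time 0, shares batch F with some LiCl arrays and is not described. After 5 min of heat the early oligos had a median of -0.76 and the others one of -0.09, and the early oligo was below the others in 39 of 41 genes and, in 32, in both replicates. After 20 min the order of the medians had turned, with the early oligos at -0.30 and the others at -0.54. The early oligo was then above the others in 27 genes, in both replicates in 20, and below in both in 11. At 40 min it was above them in 25 genes, in both replicates in 21. Between 5 and 40 min the gap moved upward in 40 of 41 genes. The early oligo was below the others at 5 min and above them at 40 min in 23 genes, and below at both times in 16.

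RPS18B showed both phases. Its early oligo stood at -0.83 at 5 min of heat and -0.20 at 20 min, and its other oligos at -0.34 and -0.46, then at -1.44 and -1.83. RPS6B was alike, with an early oligo at -0.59 and -0.13 and others at -0.44 and -0.19, then at -1.88 and -1.18. RPS13 kept its order: its early oligo stood at -1.95 at 5 min, -1.11 at 20 min and -1.08 at 40 min, and the mean of its others at 0.01, -0.08 and -0.37.

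Rapamycin, in arrays of other batches than LiCl, gave the same change of order later. At 5 min the medians of the early and the other oligos were -0.01 and -0.02. At 10 min they were -0.49 and -0.14, with the early oligo below the others in 32 genes. At 40 min they were -0.20 and -0.88, with the early oligo above the others in 34 genes, in both replicates in 30. RPS10A oligo 3 stood at -2.33 at 40 min, RPS27B oligo 2 at -2.20 and RPS18B oligo 2 at -1.98, all 3 of them not early oligos. Glucose depletion went from -0.48 and -0.19 at 10 min to -0.31 and -0.52 at 40 min, and wortmannin from -0.24 and -0.01 to -0.31 and -0.81.

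**Figure D4:**
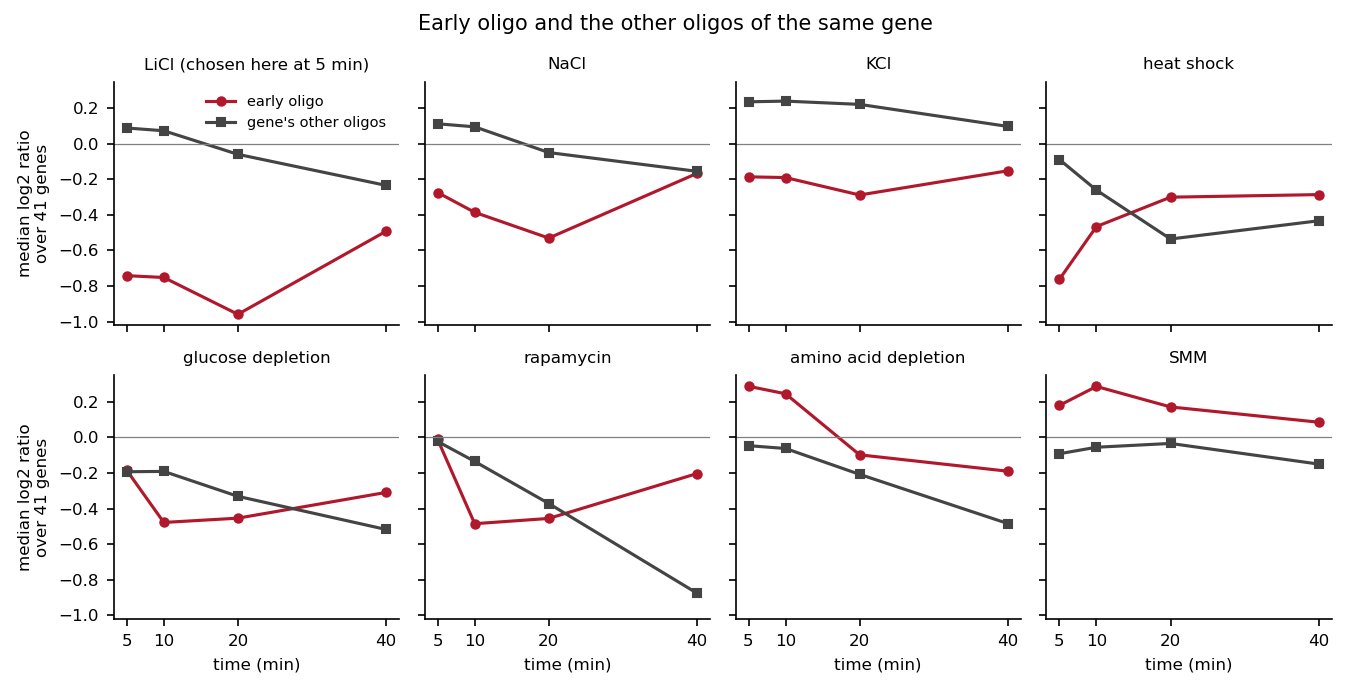
Median log2 ratio over the 41 genes of the early oligo (red circles) and of the mean of the same gene's other oligos (grey squares) against time, in 8 treatments of the wild type. Early oligos were chosen as the lowest of their gene at 5 min in LiCl. The lines cross in heat shock, glucose depletion and rapamycin, and the early oligos lie above the others throughout in amino acid depletion and SMM.

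In amino acid starvation, and in inositol depletion, the early oligos stood above the others at first. After 5 min without amino acids they had a median of 0.29 and the others one of -0.05, and the early oligo was above the others in 35 of 41 genes. In SMM the medians were 0.18 and -0.09, with the early oligo above in 38 genes, in both replicates in 30. In 3-AT they were 0.30 and 0.01, with the early oligo above in 36 genes, in all 3 replicates in 29. In the his3 deletion strain without histidine they were 0.13 and -0.01, with the early oligo above in 37 genes, in all 4 replicates in 18. In the HIS3 repaired strain they were 0.04 and -0.06, with 35 genes above, in all 4 replicates in 9. In inositol depletion they were 0.06 and -0.08, with 38 genes above, in both replicates in 22. Oligo 3 of RPS25B, described above for the histidine courses, is an early oligo, and the early oligo stood above the others in 36 of 41 genes in the his3 deletion strain at 20 min, in 32 in amino acid depletion at 40 min and in 19 in 3-AT at 20 min.

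KCl and NaCl had the order seen in LiCl up to 20 min. Some of their arrays share a batch number, and so perhaps control cells, with the LiCl arrays. Some arrays of glucose depletion, inositol depletion and 3-AT, and those of dithiothreitol, share a batch number with the LiCl arrays too. At 20 min the early and other oligos had medians of -0.29 and 0.22 in KCl and of -0.53 and -0.05 in NaCl. At 40 min they were -0.15 and 0.10 in KCl, with the early oligo below the others in 31 genes. In NaCl they were -0.17 and -0.16 by then, with the early oligo below in 24 genes and above in 17, and in 16 genes the order had turned since 5 min. In LiCl itself it was below in 29 genes at 40 min, and in the 1 replicate of KCl at 60 min in 22. The hog1 deletion strain in KCl had -0.19 and 0.21, with the early oligo below the others in 37 genes, in both replicates in 36. The 1 replicate of sorbitol had medians of -0.34 and 0.00 at 5 min, with the early oligo below in 39 genes. This number was 22 at 20 min and 14 at 40 min, where the medians were -0.15 and -0.27. In the 1 replicate of each dose of dithiothreitol the early oligo was below in 34 to 41 genes over the 4 times, whereas in phosphate depletion it was below in 7 to 29, in TBB in 13 to 21 and in nitrogen depletion in 17 to 33.

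In the strain without RRP6 set over the wild type, the medians over 13 identifiers lay above 0 for 37 of 41 early oligos and for 51 of 86 others. The early oligos had a median of 0.26 and the others one of 0.04, and the early oligo was above the mean of the others in 32 of 41 genes. RPS8A oligo 3, an early oligo, was the highest, between 0.77 and 2.16 with a median of 1.28. RPS13 oligo 3 followed between 0.30 and 1.59 with a median of 0.61. RPS6A oligo 2 was the lowest early oligo, with a median of -0.14. These identifiers are single time points of cells before treatment and in KCl, LiCl and rapamycin, all of 1 batch. The wild-type cells they were set over had the same treatment, and early oligos were chosen as low in wild-type cells in LiCl. The choice may thus raise part of these ratios. The identifiers were pooled, so cells before treatment are not shown apart.

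For 8 members (RPS8A, RPS8B, RPS25A, RPS25B, RPS26A, RPS26B, RPS29A and RPS29B) the locus in the RefSeq gene table (R64) has the same length in both paralogues, and for the other 33 it does not or there is no partner to compare. The equal lengths, from 171 to 603 bp, are multiples of 3, so these loci may hold no intron. The sources used here do not state it. The split was made after the values were seen. The early oligo lay below the others of its gene at 5 min of heat in all 8 of these members and in 31 of the 33, with median differences of -0.68 and -0.60. At 40 min of rapamycin it lay below them in 0 of the 8 and in 7 of the 33, with median differences of 0.59 and 0.59. At other times the sets parted. After 10 min of glucose depletion the early oligo lay below in 3 of the 8 and in 24 of the 33, with median differences of 0.09 and -0.36. After 20 min of amino acid depletion the median differences were 0.35 and 0.04, and after 5 min of rapamycin 0.26 and 0.00.

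Paralogues were compared as the A copy minus the B copy. Their coding sequences are close to identical and the files do not show whether an oligo can tell one copy from the other, so that signal from a partner may be read with its own. A pair differed in 8 of 19 cases in LiCl (background 39.5% of 43 pairs on the array), 8 in rapamycin (background 34.9%), 6 in KCl (background 25.6%), 2 in 3-AT (background 9.3%), 1 in the his3 deletion strain (background 2.33%) and 0 in the HIS3 repaired strain (limma, 0 at an unadjusted p below 0.05; background 0%). The shares of member pairs were close to those of all pairs. The KCl count was 1 without replicate 2 and 0 with a spread from the KCl replicates alone. The 3-AT count was 0 to 1 with 1 replicate left out.

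The B copy was the lower one in 7 of the 8 differing pairs in LiCl, in 7 of 8 in rapamycin and in 5 of 6 in KCl. Over all pairs on the array, members included, these counts were 11 of 17, 11 of 15 and 7 of 11, and the difference between members and the rest was not tested. In LiCl RPS19A stood at -0.09 and RPS19B at -0.72, a difference of 0.28, 1.03 and 0.56 in the 3 replicates with a mean of 0.62 ± 0.38 (limma adjusted p = 3.36e-07), which became -0.06 with the median of each gene's oligos. RPS7A stood at -0.29 and RPS7B at -0.89, a difference of 0.60 ± 0.26 (limma adjusted p = 3.36e-07). RPS0A and RPS0B stood at -0.27 and -0.83, a difference of 0.55 ± 0.54, most of it from 1 replicate at 1.17. RPS30 differed by 0.41 ± 0.22 in 2 replicates, and by -0.04 without the oligos whose copies were noisiest.

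In rapamycin the RPS24 pair differed by 0.61, 0.73 and 0.32, a mean of 0.55 ± 0.21 (limma adjusted p = 3.62e-07), with RPS24A at -0.32 and RPS24B at -0.87. RPS25A and RPS25B stood at -0.05 and -0.57, a difference of 0.52 ± 0.11 in 2 replicates. The RPS19 and RPS6 pairs differed by 0.47 ± 0.27 and 0.47 ± 0.09. The B copy was the lower one in each of these 4 pairs, whereas RPS27, picked out for its sign, differed by -0.30, with RPS27A at -0.70 and RPS27B at -0.40.

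In KCl the RPS0 pair differed by 0.63, 0.39, 0.34 and 0.16, a mean of 0.38 ± 0.19 (limma adjusted p = 0.00107), with RPS0A at 0.09 and RPS0B at -0.29. RPS7 differed by 0.25 ± 0.13. RPS4, chosen after its value was seen, differed by 0.22, 0.14, 0.09 and 0.23, a mean of 0.17 ± 0.07 (limma adjusted p = 0.0373). RPS0 was the pair that passed without replicate 2. RPS25 differed by -0.27 ± 0.16, RPS25B being the higher copy, a value that became 0.12 without the oligos whose copies were noisiest. RPS25 was the pair that differed in the histidine courses too, with RPS25A at -0.18 and RPS25B at -0.59 in 3-AT (a difference of 0.41 ± 0.22, limma adjusted p = 0.000475) and at 0.02 and -0.31 in the his3 deletion strain (0.33 ± 0.33, limma adjusted p = 0.00282). The latter rests on replicate 1, at 0.80, without which no pair passed. RPS16 differed by 0.34 ± 0.07 in 3-AT, and no longer passed when any of the 3 replicates was left out. The RPS10, RPS18, RPS21, RPS23 and RPS26 pairs differed in none of the 6 comparisons.

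**Figure D5:**
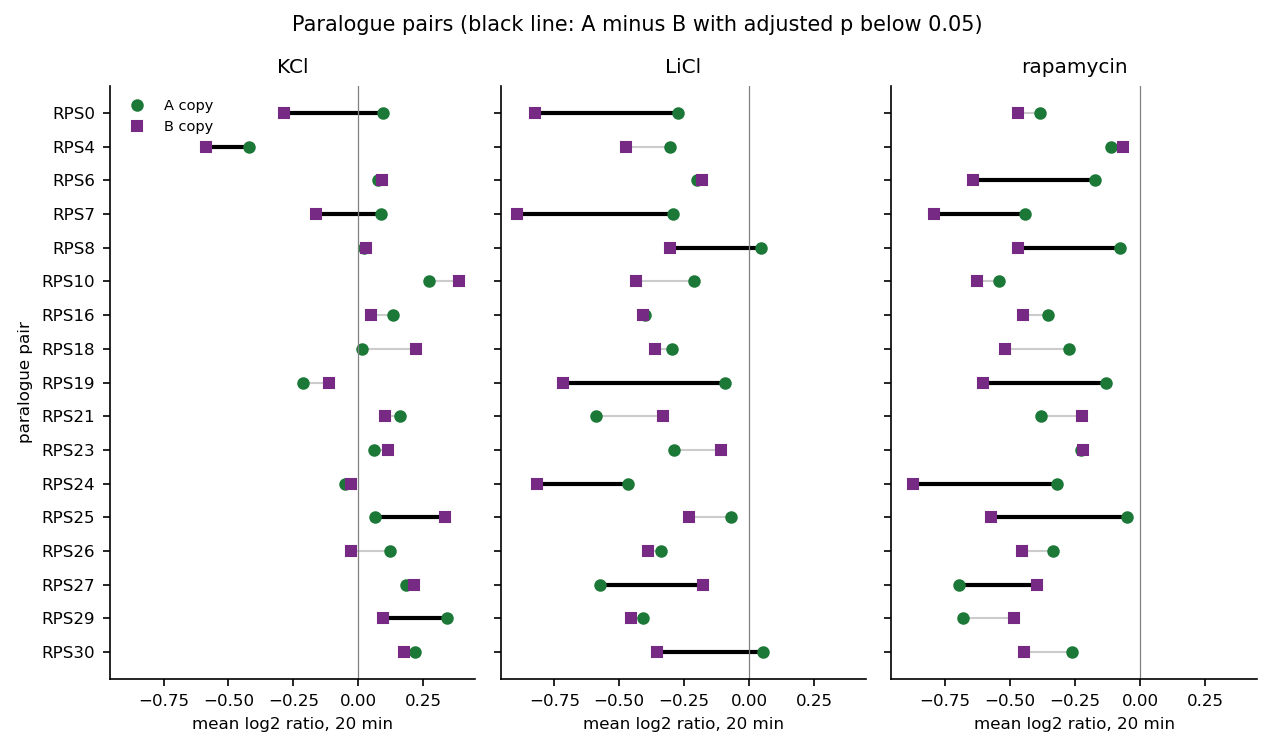
Mean log2 ratio at 20 min of the A copy (green circles) and the B copy (purple squares) of 17 paralogue pairs in KCl, LiCl and rapamycin. Black lines join copies whose difference had an adjusted p below 0.05. Circles lie to the right of squares in 6 of the 7 black pairs in LiCl and in 6 of 7 in rapamycin.

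Other genes of the pathway were measured by counts. Of the 9 regulators of ribosomal protein genes on the array, 1 was higher and 2 lower in KCl, 2 were higher and 0 lower in heat shock and in rapamycin, and 3 higher and 2 lower in amino acid depletion. Over all genes, 15.5% were higher in KCl, 14.6% in heat shock, 20.3% in rapamycin and 19.2% in amino acid depletion. The shares lower were 16.3%, 17%, 18.8% and 16.2% in the same order, and 21.1% in LiCl. Whether either list differed from all genes was not tested. HMO1 and IFH1 were picked out after their values were seen. HMO1, for an HMG-box protein found at ribosomal protein promoters, stood at 0.61 in heat shock, 0.38 in rapamycin and -0.32 in KCl, and IFH1, for the coactivator at these promoters, at 0.36 in heat shock and -0.32 in KCl, all of which passed. Of the 16 small-subunit assembly factors, 11 were lower in LiCl, 9 in heat shock, 12 in rapamycin, 14 in amino acid depletion and 4 in KCl. Their median over gene means was -1.205 in amino acid depletion, where that of the members was -0.18, and -0.73 in rapamycin, where that of the members was -0.44. NOP58, picked out likewise and encoding a core protein of box C/D small nucleolar particles, stood at -1.87 in amino acid depletion.

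Groups with 1 replicate have no replicate check. In sorbitol the members' median went from -0.11 at 5 min to -0.20 at 40 min. In 1 mM and 10 mM dithiothreitol it stood at -0.18 and -0.27 at 40 min. In TBB it stood between -0.03 and 0.01 over the times, with RPS10A lowest at -0.44 and RPS14A highest at 0.48 at 20 min. In phosphate depletion it stood at 0.03 at 5 min and -0.18 at 40 min. In nitrogen depletion at 20 min it stood at -0.03, with RPS18B lowest at -0.79 and RPS8A highest at 0.59. After 60 min in KCl it stood at -0.06, with RPS0B lowest at -0.62 and RPS30A highest at 0.65.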

How the data were processed

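The members, the lists and the comparisons were chosen with earlier results of these data known. The deposited values are log2 ratios per spot of channel 1 over channel 2; they were read as log2 because they are centred near 0, and neither the base of the logarithm nor the authors' normalization is given in the sources used here. Per the labels' protocols, RNA was prepared with acid phenol and cDNA was labelled through aa-dUTP with Cy3 or Cy5. Array medians lay between -0.0391 and 0.0477 and were not rescaled. The 9216 spots were joined into 1536 oligos of 6 copies by their positions. Copies were averaged where at least 2 were present, the sign was set to treated over control, and arrays that shared an identifier were averaged; 29 identifiers had 1 orientation. Gene symbols came from the platform annotation, and all 41 members matched the RefSeq gene table (R64). Promoter motifs and protein identities planned for the members were not analysed here, since no sequence was used.

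Gene means (982 genes), differences of an oligo from its gene's other oligos (702) and paralogue differences (43 pairs) were tested with limma 3.58.1 (R 4.3.3; pandas 2.3.3, numpy 2.4.6, matplotlib 3.10.9 for tables and figures) in 1 fit each over 76 groups, 185 replicates and 109 residual degrees of freedom, two-sided, with Benjamini-Hochberg adjustment over all features and a threshold of 0.05. Before use, the code recovered changes put into simulated data. Named are the 5 lowest and 5 highest members per gene comparison, 4 and 4 oligos per oligo comparison and 4 pairs per pair comparison, among those that passed with the same sign in every replicate, or the lowest and highest where none did; members named in 3 or more gene comparisons are given over time in LiCl, heat shock and rapamycin. Results of some members are not reported here by name, though all members count in the totals. Other members are said to be picked out where named. Alternatives were the median of copies, centring on other genes, arrays without many missing spots, a fit to the compared groups only, batch as a random block, dye correction, the median of oligos, the noisiest oligos left out, the unsettled identifiers, each replicate left out, and neighbouring array identifiers as a replicate block.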

Additional observations from a re-analysis of the deposited data

Results flagged for a closer look

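Of 43 sets of 4 replicate values (member medians and named genes, oligos and pairs) tested for a value that stood apart from the rest, 1 held one: in the wild type after 20 min in KCl the median of the 41 members was 0.108 in replicate 2, and between 0.046 and 0.053 in the others. Chance alone marks about 1 in 20 such groups.

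The level after 40 min differed from that after 5 min in the same treatment, by limma's test of the difference itself, for 9 members in LiCl and 1 in KCl. In LiCl RPS7B differed by -0.65, RPS26B by -0.57, RPS29A by -0.53, RPS10A by -0.52, RPS24B by -0.43, RPS8B by -0.42, RPS27A by -0.41 and RPS0A by -0.32. RPS4B differed by 0.42, as it stood lower at 5 min than at 40 min. In KCl RPS0B differed by -0.42.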

How the results depend on the processing

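Of the values of named genes, oligos and pairs under all alternatives, 1186 kept their direction and side of the threshold, 2 newly passed, 4 reversed and the rest no longer passed. Of the counts of members that passed, 278 stayed within 1.5 times and 81 did not; the cause was not tested beyond what each alternative's own construction shows. The reversed values were RPS0B in inositol depletion (0.15 without replicate 1, -0.34 without replicate 2), RPS25 A minus B in KCl (0.12 without the noisiest oligos, 972 being kept), RPS19 A minus B in LiCl (-0.055 with the median of oligos) and RPS30 A minus B in LiCl (-0.044 without the noisiest oligos). Gene counts with 1 replicate left out were 9 to 13 in KCl (9 without replicate 2 or 4), 2 to 11 in NaCl (2 without replicate 1, 11 without replicate 2), 14 to 28 in heat shock (14 without replicate 1), 1 to 2 in 3-AT, 0 to 0 in SMM, 3 to 6 in amino acid depletion, 15 to 24 in glucose depletion (15 without replicate 2), 6 to 18 in wortmannin (6 without replicate 2), 0 to 1 in the his3 deletion strain (0 without replicate 1 or 3) and 0 to 1 for its difference from the HIS3 repaired strain (1 without replicate 4); for 40 minus 5 min they were 0 to 2 in KCl and 4 to 8 in LiCl (4 without replicate 3 at 40 min). Oligo counts were 55 to 89 in LiCl (55 without replicate 3), 1 to 2 in 3-AT (1 without replicate 1 or 3), 24 to 37 in rapamycin (24 without replicate 2, 29 without replicate 3) and 1 to 2 in the his3 strain (2 without replicate 4). Pair counts were 1 to 5 in KCl (1 without replicate 2, 3 without replicate 4), 5 to 7 in LiCl (5 without replicate 3), 0 to 1 in 3-AT and 0 to 1 in the his3 strain (0 without replicate 1). A fit to the compared groups only, with few degrees of freedom, gave gene counts of 16 in LiCl, 12 in rapamycin, 0 in heat shock, 3-AT, SMM, amino acid and glucose depletion and the his3 strain, and for 40 minus 5 min 0 in KCl, 2 in LiCl and 3 in the his3 strain; oligo counts of 57 in LiCl, 1 in 3-AT and 1 in rapamycin; and pair counts of 0 in KCl, 2 in LiCl, 0 in 3-AT and 2 in the his3 strain. The median of oligos gave 10 genes in LiCl, 7 in NaCl and 4 in SMM, 3 and 17 for 40 minus 5 min in KCl and LiCl, and 4 pairs in LiCl and 0 in the his3 strain. Without the noisiest oligos, 4 genes passed in SMM, 0 in the his3 strain and 2 for 40 minus 5 min in KCl, 57 oligos in LiCl, 22 in rapamycin and 2 in the his3 strain, and 1 pair in 3-AT and 0 in the his3 strain. Without arrays with over 20% missing spots, 4 genes passed in SMM, 2 for 40 minus 5 min in KCl, and 29 oligos in rapamycin. Batch as a random block gave 4 genes in SMM and 3 for 40 minus 5 min in KCl, the dye correction 2 for the latter, and the median of copies 2 genes in 3-AT. The rapamycin identifiers of unsettled direction, used as labelled, gave 2 genes, 1 oligo and 0 pairs, and with their sign turned 34, 53 and 11. Centring on genes outside the ribosomal protein families moved no count by over 1.5 times. Replicate numbers follow accession order and pair no samples, but array identifiers of the compared groups run next to each other within a batch. With such neighbours as a replicate block, chosen after seeing the data (the KCl replicate at 40 min without a neighbour left out), the count for 40 minus 5 min was 2 in KCl, 9 in LiCl and 0 in both histidine courses, and 0 for the difference between their strains. Neighbours' deviations from their group means correlated over genes at 0.127 to 0.482 in the his3 strain, while each of the other 4 comparisons held a pair below 0.1. Signal over background was not examined, since only ratios were used here.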
